A study of Homo sapiens with 9 samples.

Results

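Wnt signaling was followed through 10 genes: the ligands WNT5A, WNT5B and WNT7B, the secreted inhibitors DKK1, DKK3 and SFRP1, the membrane-bound inhibitor RNF43, the feedback regulator AXIN2 and the transcription factors LEF1 and TCF7L2. Every non-control probe of the array whose annotated transcript is a RefSeq transcript of one of them was taken, which gave 16 probes of 10 genes out of 30271 probes with 21739 gene names. The rule itself uses no measured value, but the genes were chosen with earlier results of these data known. Of the 16 probes, 15 (9 genes) gave a signal well above the background of at least 1 array, and 12 (7 genes) did so on all 9.

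All 3 groups derive from A549, an established line of human lung adenocarcinoma cells. Parental A549 (3 arrays, passages P98, P98 and P99) received no virus. OSK-A549-Colony and OSK-A549-SN (3 arrays each, passages P106, P107 and P106 in both groups) were transduced with retroviral pMXs vectors for OCT3/4, SOX2 and KLF4, together called OSK. Per the methods, Colony cells are the compact colonies that stayed attached through a short trypsin treatment and were labeled lung cancer stem-like cells, and SN cells are the spindle-shaped cells that this treatment released first and were labeled differentiated. Per the methods, the RNA came from separate transduction experiments, which the labels do not tie to replicate numbers. No array of cells with a control vector was analysed here, and transduced cells were at later passages than parental cells, so transduction, viral infection and passage cannot be told apart. Each array measured the RNA of many cells, in which fewer cells that express a gene and less RNA per cell cannot be told apart.

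Wnt proteins are secreted lipid-modified ligands that bind Frizzled receptors. In the canonical branch, Frizzled and its co-receptors LRP5 and LRP6 stop the destruction of beta-catenin, which then enters the nucleus and activates genes through the TCF/LEF factors. WNT5A and WNT5B act mainly in branches that do not need beta-catenin, some of them through the receptors ROR1 and ROR2. The pathway is held back at several levels: DKK1 blocks LRP5 and LRP6, SFRP1 binds Wnt proteins outside the cell, RNF43 removes Frizzled from the cell surface, and AXIN2 rebuilds the complex that destroys beta-catenin. In lung epithelium and its tumors Wnt signals are known for their part in progenitor maintenance.

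All levels below are log2 intensities relative to the 75th percentile of the array, so that 0 is the level of that percentile and 1 unit is a doubling. A probe was called where the Benjamini-Hochberg adjusted p of limma was under 0.05 and the fold change over 2. Over 23758 probes, the correlation between arrays of a group was 0.983 to 0.993 for parental, 0.994 to 0.997 for Colony and 0.987 to 0.996 for SN cells, with a median SD per probe of 0.21, 0.09 and 0.16. The epithelial identity of the line was seen in all groups, with 6 of 6 epithelial markers well above background on all 9 arrays, while their summed level, in multiples of the 75th percentile, was 1589 to 1790 in parental A549, 1486 to 1581 in Colony cells and 1506 to 1847 in SN cells. No probe of this sum was called in any comparison. Relative to parental A549, CDH1 in Colony cells differed by -0.996, EPCAM by -0.38, KRT8 by -0.36, KRT18 by -0.24, KRT7 by 0.15 and KRT19 by 1.18, and for SN cells the differences were -0.83, -0.72, -0.08, -0.08, 0.24 and -0.05 in the same order. Of the markers of other cell types, 4 of 5 fibroblast markers and PECAM1 were well above background on no array, while the endothelial markers VWF and CDH5 were so on all 9. The summed level of 6 mesenchymal markers, of which ZEB2 was well above background on no array, was 154 to 212 in parental A549, 222 to 238 in Colony cells and 230 to 252 in SN cells. VIM had the highest level of the list and differed from parental A549 by 0.41 in Colony and 0.49 in SN cells. In the same order CDH2 differed by 0.74 and 0.69, ZEB1 by 1.09 and 0.72, FN1 by -0.31 and -1.33 and TWIST1 by -0.17 and -0.07. The summed level of 3 leukocyte markers was 1.06 to 1.42 in parental A549, 1.97 to 2.25 in Colony cells and 2.01 to 2.34 in SN cells. Relative to parental A549, CD68 differed by 1.04 in Colony cells, which was called, and by 1.03 in SN cells, which was not. PTPRC differed by -0.57 and -0.01 and CD3E by -1.04 and -0.35. The mesenchymal and leukocyte sums were higher in both transduced groups and the epithelial sum was lower in Colony cells, with members of each list going both ways. The part of these sums in the results below was not tested. As a check of the labels, the KLF4 probe was higher in Colony than in parental cells by 2.77 (limma adjusted p = 0.0373) and in SN than in parental cells by 2.47 (limma adjusted p = 0.1002), while the SOX2 probe and both POU5F1 probes overlapped between Colony and parental cells. POU5F1 probe A_24_P144601 was higher on average by 2.21 in Colony and 2.30 in SN cells (limma adjusted p = 0.155 and 0.228), with an SD of 1.73 and 1.92 in these groups, and probe A_23_P59138 differed by -0.42 and -0.32. Where in the transcript these probes lie was not given in the sources used here, and a probe outside the part carried by the vector cannot see the transgene.

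The members called from levels well above background on all 9 arrays were DKK1 and SFRP1, both secreted inhibitors, in different comparisons and opposite directions. DKK1, the antagonist of LRP5 and LRP6, fell in Colony cells to a 2.48-fold lower level than in parental A549. That call was kept in 8 of 14 processing alternatives, and 3.70% of all probes were called in the comparison. SFRP1, the decoy that binds Wnt proteins, was highest in SN cells, 2.46-fold above parental A549. Its call was kept in 4 of 15 alternatives and in none of the 6 fits without 1 array. In that comparison 1.55% of all probes were called. With all arrays in, WNT7B and AXIN2 stayed within 0.41 log2 units of parental A549 in both transduced groups, and LEF1 was well above background on no array. Leaving out 1 array moved AXIN2 probe A_24_P298027 between -0.62 and -0.21 in Colony against parental cells. By the limma F test over the 3 groups, 4 of 15 probes passed an adjusted p of 0.05 (WNT5A, DKK1, SFRP1 and RNF43), against 11.4% of all 33083 probes tested. WNT5A entered that test only through Colony replicate 1, the sole array on which it was well above background.

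**Figure D1:**
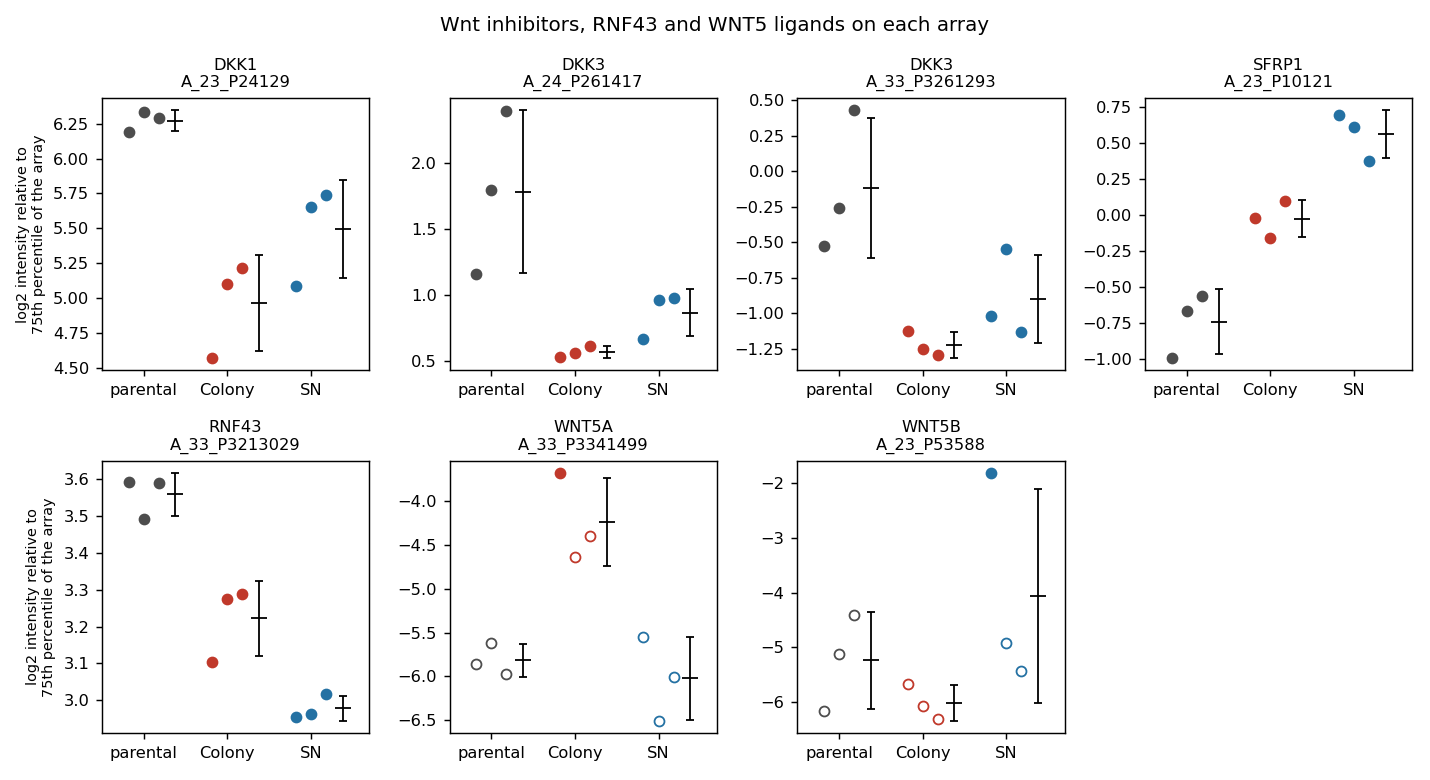
Log2 intensity relative to the 75th percentile of the array (y axis, a separate scale per panel) for the DKK1, DKK3, SFRP1, RNF43, WNT5A and WNT5B probes in the 3 groups of cells (x axis). Each point is 1 array, filled where the probe was well above background and open where it was not, and the bars are the mean ± SD of 3 arrays. DKK1 lies at 6.19 to 6.33 on the parental arrays and at 4.57 to 5.21 on the Colony arrays, and the 3 groups of SFRP1 do not overlap.

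DKK1 is itself a known target of beta-catenin and TCF, and its promoter is shown as that of the member called lower in Colony cells. RNF43, another known target, is shown beside it as a member that passed the F test. Both are the 250 bases ahead of the annotated start in RefSeq (GRCh38.p14), 5′ to 3′ on the strand of the gene: chr10:52314031-52314280 on the plus strand for DKK1 and chr17:58417535-58417784 on the minus strand for RNF43, which has a further annotated start. Capitals mark the core of the TCF/LEF motif (CTTTGA, or TCAAAG on the other strand) and the GC box (GGGCGG or CCGCCC), which do not overlap each other.
DKK1: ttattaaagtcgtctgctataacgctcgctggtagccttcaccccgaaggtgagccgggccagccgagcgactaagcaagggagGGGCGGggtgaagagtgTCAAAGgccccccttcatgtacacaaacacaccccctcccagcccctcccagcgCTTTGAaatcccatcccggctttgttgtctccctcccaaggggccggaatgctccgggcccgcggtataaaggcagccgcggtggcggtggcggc
RNF43: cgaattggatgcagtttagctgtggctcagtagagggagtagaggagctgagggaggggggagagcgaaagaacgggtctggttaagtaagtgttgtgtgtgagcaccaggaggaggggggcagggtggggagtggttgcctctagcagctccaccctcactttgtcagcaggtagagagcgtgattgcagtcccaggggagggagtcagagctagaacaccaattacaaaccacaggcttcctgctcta
The DKK1 window held the TCF/LEF core 2 times, from 149 and from 95 bases ahead of the start, and a GC box from 166 bases ahead, at a GC content of 62.8%. The RNF43 window held neither motif at a GC content of 56%. Of 35116 windows of this length ahead of annotated human starts, 11.2% held the core at least 1 time and 0.977% held it 2 times or more, and 42.6% held a GC box. The octamer ATTTGCAT (or ATGCAAAT), the letters that OCT factors favor, was in none of the 11 windows of 6 of the 10 genes and in 1.63% of all windows. These are matches of letters, not sites of binding.

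DKK1 (probe A_23_P24129) was well above background on all 9 arrays. Its level was 6.19, 6.33 and 6.29 on the parental arrays, 4.57, 5.10 and 5.21 on the Colony arrays and 5.09, 5.65 and 5.74 on the SN arrays. Every Colony and SN array was below every parental array, while Colony and SN arrays overlapped. In Colony against parental cells the log2 difference was -1.31 (SE 0.19, 95% interval -1.78 to -0.84, limma adjusted p = 0.0264), which was called. Between SN and parental cells it was -0.78 (SE 0.20, 95% interval -1.28 to -0.28, limma adjusted p = 0.112), which was not called. In Colony against SN cells it was -0.53 (95% interval -1.16 to 0.09, limma adjusted p = 0.312), which was not called. This interval treats the arrays as unpaired, while each Colony array was below the SN array of the same number. Over the 3 groups the limma adjusted p was 0.0253. The call in Colony cells was kept in 8 of 14 alternatives. It was lost without parental replicate 2 (-1.28, limma adjusted p = 0.0876) and without Colony replicate 1 (-1.11, 0.0568), replicate 2 (-1.38, 0.110) or replicate 3 (-1.44, 0.0792), with the difference between -1.44 and -1.11 in all fits. It was also lost with no moderation of the variances (adjusted p = 0.0578) and with the replicate number as a block (limma adjusted p = 0.118).

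DKK3, a relative of DKK1 that is often silenced in tumors and whose action on Wnt signaling is less direct, was read by 2 probes. Probe A_24_P261417 read 1.16, 1.79 and 2.39 on the parental arrays, 0.53, 0.56 and 0.62 on the Colony arrays and 0.67, 0.96 and 0.98 on the SN arrays. Probe A_33_P3261293 read -0.53, -0.26 and 0.43, then -1.12, -1.26 and -1.29, then -1.02, -0.55 and -1.14. With both probes every Colony array was below every parental array, and the parental arrays were the most spread (SD 0.61 and 0.49). The log2 differences in Colony against parental cells were -1.21 (SE 0.31, limma adjusted p = 0.0675) and -1.10 (SE 0.26, limma adjusted p = 0.0562), larger than a doubling but not called. For SN against parental cells they were -0.91 and -0.78 (limma adjusted p = 0.184 and 0.208), and in Colony against SN cells -0.30 and -0.32. Without parental replicate 1, the lowest parental array, both were called, at -1.52 (limma adjusted p = 0.0341) and -1.31 (0.0453), and over all 14 alternatives they were called in 4 and 3.

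SFRP1 (probe A_23_P10121) ran in the other direction. Its level was -0.99, -0.67 and -0.56 on the parental arrays, -0.02, -0.16 and 0.10 on the Colony arrays and 0.70, 0.61 and 0.38 on the SN arrays. The groups lay in the order parental, Colony, SN with no overlap between any of them. In SN against parental cells the log2 difference was 1.30 (SE 0.17, 95% interval 0.88 to 1.73, limma adjusted p = 0.0398), which was called. In Colony against parental cells it was 0.71 (SE 0.15, limma adjusted p = 0.0468), which passed the adjusted p but not the fold of 2. In Colony against SN cells it was -0.59 (SE 0.13, 95% interval -0.90 to -0.28, limma adjusted p = 0.124), which was not called. The F test gave the probe an adjusted p of 0.00965 by limma, the smallest among the 15 probes, and it passed in 16 of 16 alternatives. SN replicate 3 lay alone on the second array slide, and with the slide as a block, which leaves only the slide that held both groups, the difference was 1.39 (limma adjusted p = 0.0667). The call was also lost with normexp (0.98, limma adjusted p = 0.00876, below a fold of 2), whose offset of 50 by itself shrinks differences. It was lost too with no detection filter (limma adjusted p = 0.0566), with no moderation (adjusted p = 0.0750) and with the replicate number as a block (limma adjusted p = 0.175). The pairwise call was kept in 4 of 15 alternatives and in none of the 6 fits without 1 array, where the difference was 1.18 to 1.39 and the limma adjusted p 0.0555 to 0.163. Those p-values were 0.0684, 0.137 and 0.0555 without parental replicates 1, 2 and 3 and 0.156, 0.163 and 0.0634 without SN replicates 1, 2 and 3.

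RNF43 (probe A_33_P3213029), the ubiquitin ligase that clears Frizzled from the membrane, shifted by less but with little spread. Its level was 3.59, 3.49 and 3.59 on the parental arrays, 3.11, 3.27 and 3.29 on the Colony arrays and 2.95, 2.96 and 3.02 on the SN arrays. The 3 groups did not overlap, in the order parental, Colony, SN from high to low, which is the reverse of that of SFRP1. The log2 difference was -0.34 in Colony against parental cells (SE 0.10, limma adjusted p = 0.0961), -0.58 in SN against parental cells (SE 0.12, limma adjusted p = 0.0715) and 0.24 in Colony against SN cells (SE 0.09, limma adjusted p = 0.227). None of these was called, and the limma F test passed at an adjusted p of 0.0239, in 9 of 16 alternatives as well.

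WNT5A, the main ligand of the beta-catenin-independent branch, was near the limit of what the array can measure. Probe A_33_P3341499 read -5.86, -5.61 and -5.98 on the parental arrays, -3.68, -4.63 and -4.40 on the Colony arrays and -5.55, -6.51 and -6.01 on the SN arrays. It was well above background only on Colony replicate 1, where its intensity was 19.6. The other Colony arrays read 9.44 and 11.47, the parental arrays 3.46 to 5.16 and the SN arrays 2.39 to 4.92, while the lowest intensity well above background ranged from 9.16 to 14.4 over the arrays. The Colony arrays lay above all others. The log2 difference of these readings was 1.58 in Colony against parental cells (SE 0.27, limma adjusted p = 0.0330) and 1.79 in Colony against SN cells (SE 0.34, limma adjusted p = 0.112). The first met the limits for a call, but the probe entered the test only through Colony replicate 1 and the difference is mostly one of background readings, so no change of WNT5A is read from it. SN and parental cells could not be compared, since none of their arrays was well above background. The F test gave a limma adjusted p of 0.0204. These are differences of readings and not fold changes of WNT5A, since the parental and SN levels are not measured above background. In Colony against parental cells the difference was 0.18 with normexp background correction (limma adjusted p = 0.192). That correction adds an offset of 50, above all these intensities, which by itself shrinks their differences. Without Colony replicate 1 no compared array had this probe well above background, so it could not be tested. Without any 1 of the other 5 arrays the call was also lost, with a limma adjusted p of 0.0538 to 0.107: 0.0568, 0.0911 and 0.0538 without parental replicates 1, 2 and 3 and 0.106 and 0.107 without Colony replicates 2 and 3.

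WNT5B, the closest relative of WNT5A, was well above background on 1 array. Probe A_23_P53588 read -1.82 on SN replicate 1, at an intensity of 65.7, and -6.31 to -4.41 on the other 8 arrays. The other SN arrays read -4.92 and -5.44, within the range of the parental arrays, so the level of SN replicate 1 was not shared by its group. The log2 difference in SN against parental cells was 1.17 with a 95% interval from -1.33 to 3.68 (limma adjusted p = 0.534).

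WNT7B, a canonical ligand made by lung epithelium, was the ligand of the 3 that was measured on all 9 arrays. Its 3 probes read -1.37 to -0.49 (A_24_P911607), -1.79 to -1.04 (A_33_P3248903) and 0.59 to 1.17 (A_33_P3256920) over the 9 arrays, and the groups overlapped with all 3. The log2 differences lay between -0.08 and 0.03 in Colony against parental cells, between -0.10 and 0.01 in SN against parental cells and between -0.07 and 0.03 in Colony against SN cells. The widest 95% interval of the 9 differences ran from -0.72 to 0.52, so differences of up to that size lay within the error. The sign of these differences changed with the processing.

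AXIN2, a gene that beta-catenin turns on in most tissues and that is used as a readout of the canonical branch, was well above background on all 9 arrays with both probes. Probe A_23_P148015 read 0.08, -0.06 and 0.22 on the parental arrays, -0.02, -0.09 and -0.27 on the Colony arrays and 0.19, 0.25 and 0.07 on the SN arrays. Probe A_24_P298027 read -0.17, -0.21 and 0.06, then -0.55, -0.09 and -0.92, then -0.14, -0.07 and -0.27. Colony arrays overlapped parental arrays with both probes, and they lay below the SN arrays with the first. In Colony against parental cells the log2 differences were -0.21 (95% interval -0.52 to 0.11) and -0.41 (95% interval -0.98 to 0.16), and in Colony against SN cells -0.30 (limma adjusted p = 0.225) and -0.36 (0.410). For SN against parental cells they were 0.09 and -0.05, of which the second changed sign under some alternatives.

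Of the TCF/LEF factors, which carry the signal of beta-catenin to DNA, LEF1 (probe A_24_P20630) read -6.85 to -5.58 and was not tested. TCF7L2 was read by 3 probes at low levels. Probes A_23_P127013 and A_23_P389588 were well above background on all 9 arrays, at -3.25 to -2.55 and -3.17 to -2.26. With the first, both transduced groups lay just above the parental arrays (highest parental -3.02), and with the second they overlapped them. Probe A_33_P3377304 read -4.06, -3.98 and -4.19 on the parental arrays, of which 1 was well above background, -3.35, -3.30 and -3.73 on the Colony arrays and -3.51, -3.51 and -3.86 on the SN arrays. Both transduced groups lay above the parental arrays with this probe too. The log2 difference was 0.62 in Colony against parental cells (SE 0.15, limma adjusted p = 0.0626) and 0.45 in SN against parental cells (SE 0.16, limma adjusted p = 0.174). With normexp background correction, whose offset of 50 exceeds the intensities of this probe and by itself shrinks their differences, it gave 0.084 and 0.025. The other probes gave 0.30 and 0.24 in Colony against parental cells and 0.28 and 0.34 in SN against parental cells, so all 3 differences were above 0 and none was called.

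**Figure D2:**
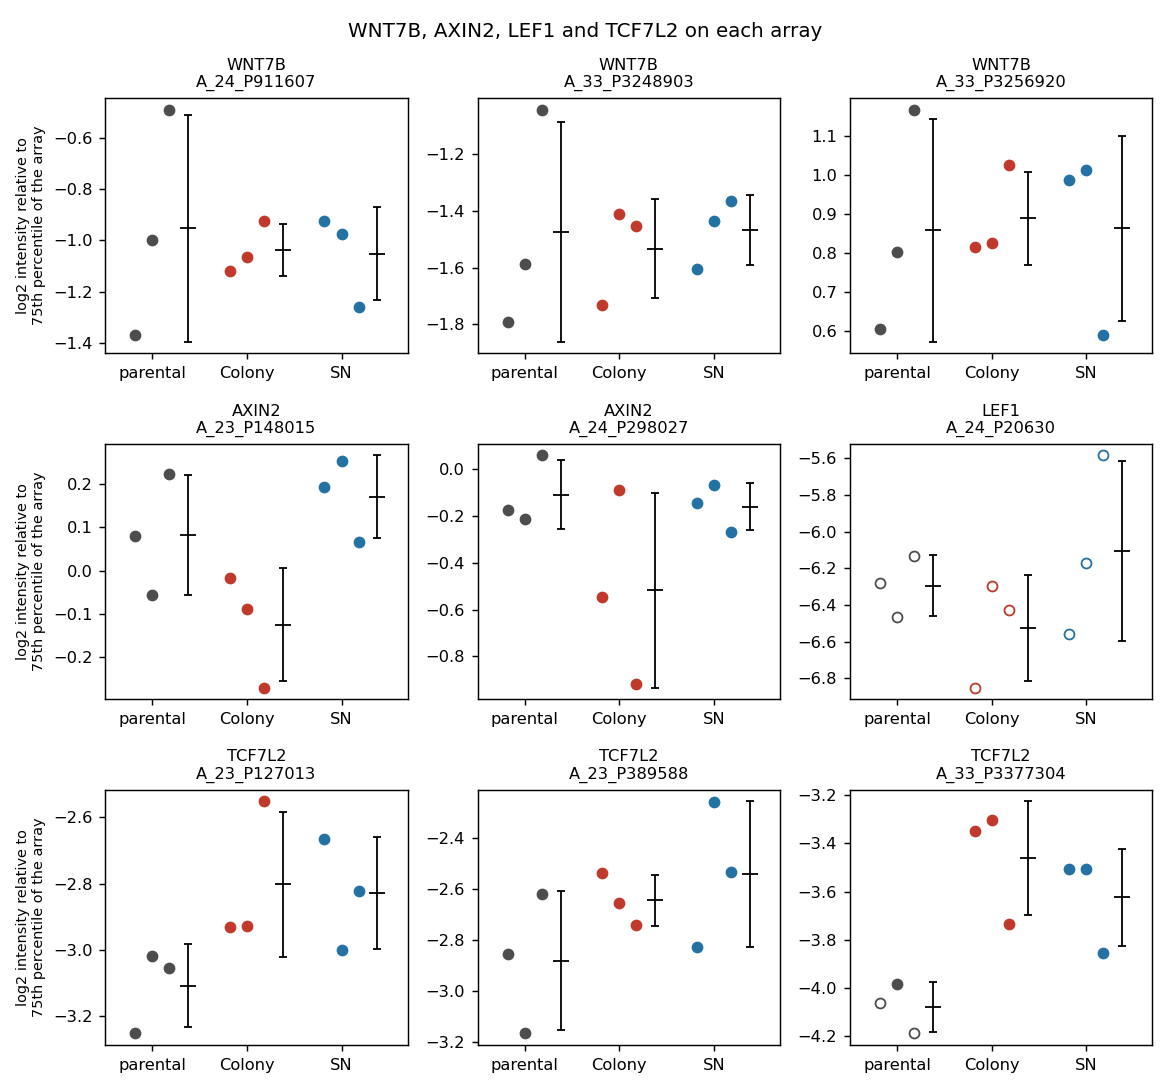
Log2 intensity relative to the 75th percentile of the array (y axis, a separate scale per panel) for the WNT7B, AXIN2, LEF1 and TCF7L2 probes in the 3 groups (x axis). Points are single arrays, filled where well above background and open where not, and bars are the mean ± SD of 3 arrays. The groups overlap for the 3 WNT7B probes, and every LEF1 point is open, at -6.85 to -5.58.

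The counts of called members stand here beside those over all probes. In Colony against parental cells, 2 of 14 tested probes were called, 1 higher (WNT5A, tested only through Colony replicate 1) and 1 lower (DKK1), where 3.70% of all 30864 probes were called, 1.71% higher and 1.99% lower. Of all calls 46.3% were higher, but 55.8% with quantile normalization, and 36.9% without parental replicate 1 to 81.2% without Colony replicate 3 among the 4 fits without 1 array that called over 1 probe. An adjusted p under 0.05 at any fold was reached by 3 of the 14, the added one being SFRP1, and by 9.02% of all probes. Without a correction, 7 of 14 had a p under 0.05, against 30.1% of all probes. In SN against parental cells, 1 of 14 (SFRP1, higher) was called, where 1.55% of 32218 probes were called in either direction and 0.705% higher, and 6 of 14 had an unadjusted p under 0.05, against 21.6%. In Colony against SN cells limma called 0 of 15, where 0.00% of 31746 probes were called and the smallest adjusted p of any probe was 0.0930. Without moderation of the variances the count of members was also 0. In the limma fit of Colony against SN cells, 5 of 15 members and 19.5% of all probes had an unadjusted p under 0.05. The groups did not overlap for 8 of 14, 7 of 14 and 6 of 15 members in the 3 comparisons, against 41.6%, 32.1% and 30.8% of all probes. WNT5A counts among the first and the last of these and WNT5B among the last, each tested only through the 1 array on which it was well above background, and WNT5A also counts among the unadjusted p-values of both comparisons, so nothing is read from these counts. The median log2 difference of the members was -0.07, 0.01 and -0.10, against -0.03, 0.08 and -0.06 over all probes. Each pair of comparisons shares the arrays of 1 group, so their values are not independent.

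**Figure D3:**
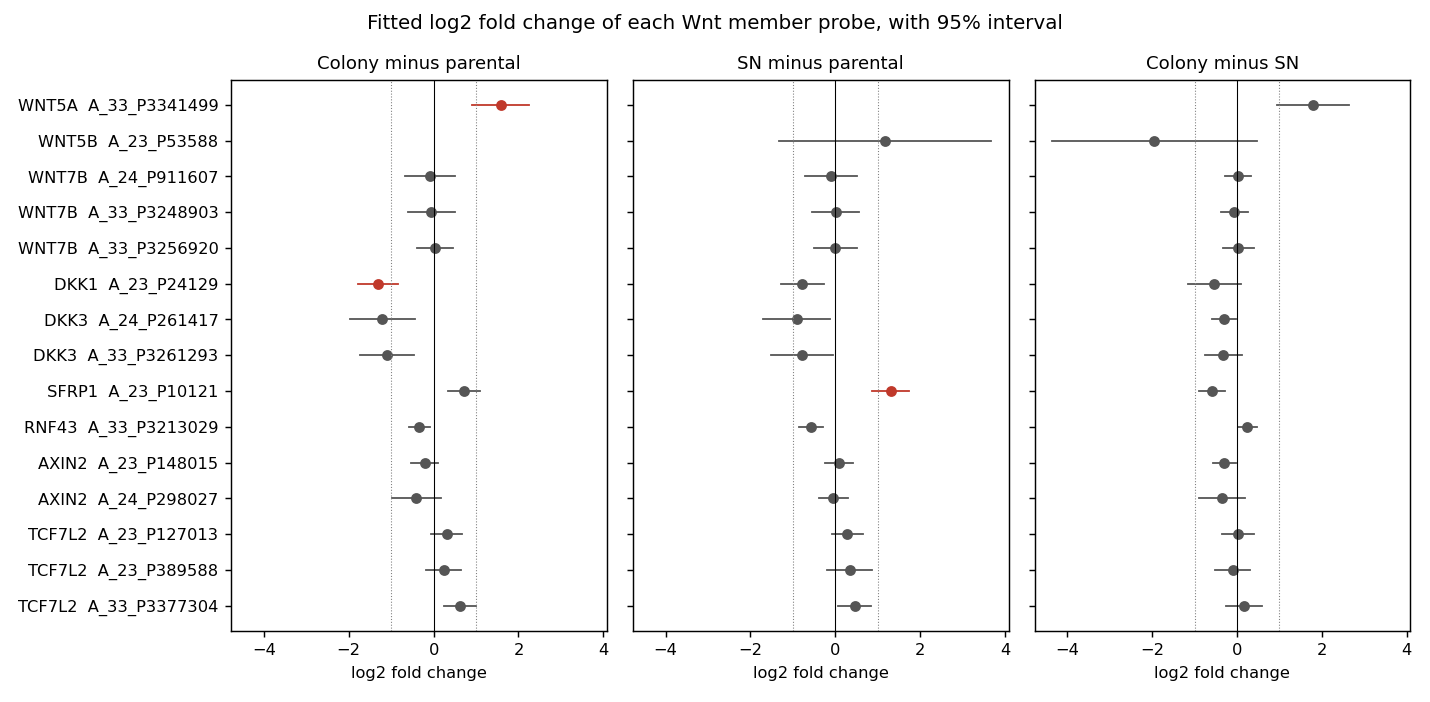
Fitted log2 fold change (x axis) of each tested member probe (y axis) in Colony minus parental, SN minus parental and Colony minus SN, with the 95% interval from limma. Red marks a call and dotted lines mark a fold of 2. DKK1 (-1.31) and WNT5A (1.58, a difference of readings that were above background on 1 array and not a measured fold) are called in the first panel and SFRP1 (1.30) in the second, and the WNT5B interval from -1.33 to 3.68 in the second panel is far wider than the others there.

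The same comparisons were made for 95 further genes of the pathway, of which 93 had a probe and 70 were well above background on at least 1 array. Of 16 further ligands, 10 were well above background on no array. All 16 receptors and co-receptors were so on at least 1, while 8 of 13 further secreted or membrane inhibitors were so on none. In Colony against parental cells, 68 genes were tested and 4 had a called probe: ROR1 higher, and KREMEN1, TCF7L1 and SP5 lower. These were 6 of 89 probes, or 6.74%, against 3.70% of all probes, and 36 of 89 had an unadjusted p under 0.05, against 30.1%. In SN against parental cells 0 of 70 genes and in Colony against SN cells 0 of 68 were called by limma, while 22 of 91 and 27 of 89 probes had an unadjusted p under 0.05, against 21.6% and 19.5% of all probes. Over 15 processing alternatives, 0 to 3 probes of the list were called in SN against parental cells, with 0 in 12 of them. In Colony against SN cells 0 were called in all 15. The median log2 difference over the probes of the list was -0.01, 0.01 and -7.3e-05 in the 3 comparisons, against -0.03, 0.08 and -0.06 over all probes tested.

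ROR1, a receptor for WNT5A, was read by 3 probes on all 9 arrays. Probe A_32_P4018 read -0.76, -0.58 and -0.90 on the parental arrays, 0.24, 0.34 and 0.75 on the Colony arrays and -0.04, -0.47 and -0.36 on the SN arrays. The Colony arrays lay above all the others. The log2 difference in Colony against parental cells was 1.19 (SE 0.18, limma adjusted p = 0.0268) with this probe and 1.08 (SE 0.17, limma adjusted p = 0.0292) with A_23_P12363, while A_24_P410605, which is annotated to another transcript, gave 0.44 (limma adjusted p = 0.182). Against SN cells the first 2 were higher in Colony cells by 0.73 and 0.85 (limma adjusted p = 0.151 and 0.110). KREMEN1, the receptor with which DKK1 removes LRP6 from the cell surface, also fell in Colony cells. Its probe A_23_P68851 read 1.59, 1.97 and 2.29 on the parental arrays, 0.98, 0.87 and 0.68 on the Colony arrays and 1.37, 1.76 and 1.16 on the SN arrays. The log2 difference in Colony against parental cells was -1.11 (SE 0.20, limma adjusted p = 0.0364), and -1.14 (SE 0.21, limma adjusted p = 0.0356) with A_23_P211401. Another KREMEN1 probe was well above background on no array.

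TCF7L1, the TCF factor known mostly as a repressor, read -1.51, -1.18 and -1.17 on the parental arrays, -2.38, -2.02 and -2.60 on the Colony arrays and -1.58, -1.59 and -1.90 on the SN arrays. Colony arrays were below all the others, and the log2 difference from parental cells was -1.05 (SE 0.19, limma adjusted p = 0.0356). SP5, a direct target of beta-catenin, read -0.76, -0.46 and -0.47, then -1.37, -2.14 and -2.41, then -0.81, -0.55 and -1.48. Its log2 difference in Colony against parental cells was -1.41 (SE 0.29, limma adjusted p = 0.0431), and Colony and SN arrays overlapped. SP5 was the 1 called gene of the 11 tested targets, whose median log2 difference in this comparison was 0.09. At any fold, 11 of 89 probes of the pathway list passed the limma adjusted p, against 9.02% of all probes, so nothing about the list is read from this count. The 5 of them below a fold of 2 are named after their values were seen. Of these, the targets MYC (0.59, adjusted p = 0.0320) and JAG1 (0.64, 0.0390) and the cytoplasmic transducer DVL1 (0.54, 0.0475) were higher in Colony than in parental cells, and the receptor FZD7 (-0.64, 0.0256) and the nuclear co-activator BCL9 (-0.79, 0.0454) were lower. Over the same 14 alternatives as for the members, 0 to 10 probes of this list were called in this comparison. With normexp the log2 difference was -0.49 for TCF7L1, -0.78 for SP5 and -0.51 and -0.99 for KREMEN1 probes A_23_P211401 and A_23_P68851 and 0.91 and 0.92 for ROR1 probes A_23_P12363 and A_32_P4018, all with a limma adjusted p under 0.05 but below a fold of 2. The offset of 50 in that correction by itself shrinks differences, most for dim probes, so it cannot tell how far these depend on the background. TCF7L1 was called in 4 of 14 alternatives, SP5 in 5, the KREMEN1 probes in 4 and 5 and the ROR1 probes in 6 and 7. The count for the list was 0 with the replicate number as a block, with no moderation, without parental replicate 2, without Colony replicate 2 and without Colony replicate 3, 1 without Colony replicate 1 and 2 without parental replicate 3.

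**Figure D4:**
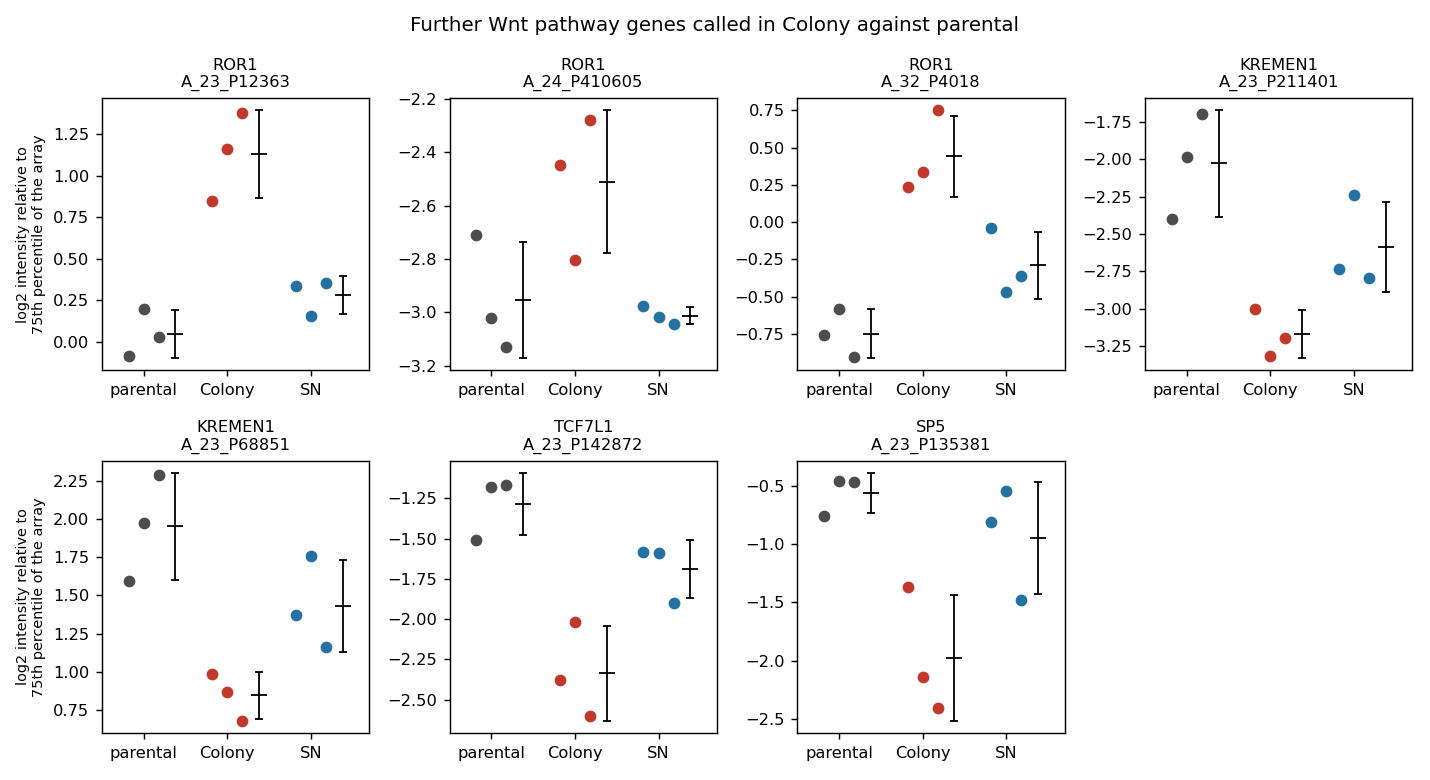
Log2 intensity relative to the 75th percentile of the array (y axis, a separate scale per panel) for the probes of ROR1, KREMEN1, TCF7L1 and SP5 that were well above background, in the 3 groups (x axis). Points are single arrays and bars the mean ± SD of 3 arrays. The Colony arrays lie below all parental arrays for KREMEN1, TCF7L1 and SP5, and above them for 2 of 3 ROR1 probes.

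The genes whose pattern over the 9 arrays was most like that of SFRP1, the member with the smallest F test p, were named among 18619 probes well above background on all arrays, as a description. These were SMOX, a spermine oxidase (Pearson r = 0.974), CAV1, the main protein of caveolae (0.973), and MKNK2, a kinase of the translation factor eIF4E (0.972). For WNT5A, which had the next smallest p, none are named, since it was well above background on 1 array. The points share the 9 arrays and the 3 groups.

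How far the 3 calls depend on the processing is shown gene by gene. DKK1 lay between -1.44 and -1.11 in every alternative, and SFRP1 in SN cells between 0.98 and 1.39. WNT5A was 1.58 as reported and 0.18 with normexp, whose offset of 50 is above every WNT5A intensity and by itself shrinks the difference. That fall therefore cannot tell how far WNT5A depends on the background correction.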

How the data were processed

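RNA of 9 samples was hybridised to single-color Agilent SuperPrint G3 8x60K v2 arrays. The authors deposited the intensity of each spot from Agilent Feature Extraction 11.5.1.1, already background-subtracted, and a table of log2 values that, for 100% of the probes, equals the values computed here plus 1 constant per array (within 0.001). Their own analysis used GeneSpring GX 13.0. Here, outlier spots (357 to 484 per array) and control spots were left out, log2 intensities were averaged per probe and the 75th percentile of the array (intensity 217.5 to 270.6) subtracted. A probe counted as well above background if a share of 0.5 or more of its spots carried that flag. RefSeq accessions named 30271 of 50599 probes.

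Each comparison was fitted with limma 3.58.1 in R 4.3.3 (lmFit, eBayes) on its 6 arrays, over probes well above background on at least 1 of them, with Benjamini-Hochberg adjustment over all probes. The F test used 9 arrays. With 3 arrays per group, an exact two-sided permutation test cannot go below 0.1. The number of arrays limits the precision. Nothing but the numbering and the methods says that the samples are separate cultures. Fits were tested on simulated data. Alternatives were another background correction (normexp, offset 50, on median spot and background signals), quantile normalization, the deposited table, detection filters, block fits, 1 fit over all arrays, no moderation and leaving out each array. The normexp offset by itself shrinks differences, most for dim probes, so fewer of them can reach a fold of 2. The text names all 10 members, further pathway genes with a call (up to 12), and 3 genes like each of the 2 members with the smallest F test p, of which those for WNT5A are left out. The members, the pathway list, the marker lists and the alternatives for the pathway list were chosen with earlier results of these data known.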

Additional observations from a re-analysis of the deposited data

How the results depend on the processing

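In Colony against parental cells, where 2 member probes were called, 1 was called with no detection filter, 3 under the stricter filter, 4 with all 9 arrays in 1 fit and 0 with no moderation, and 0 to 3 when 1 array was left out. In SN against parental cells, where 1 was called, 0 were with normexp, no detection filter, the slide as a block (SN replicate 3 was alone on the second slide) or no moderation, and 0 to 0 when 1 array was left out. In Colony against SN cells 0 were called in every fit. The F test passed 4 probes and passed 1 to 6 when 1 array was left out. Over all probes the calls in Colony against parental cells went from 1143 to 333 with normexp, 583 with no filter, 1424 under the stricter filter, 1581 in the fit of all arrays, 336 with no moderation and 0 to 1362 with 1 array left out, and in SN against parental cells from 498 to 232 with normexp, 215 with no filter, 5 with no moderation and 0 to 190 with 1 array left out, with 980 under the stricter filter, 1085 in the fit of all arrays and 187 with the slide block. In Colony against SN cells they went from 0 to 32 with normexp, 139 under the stricter filter and 9 in the fit of all arrays. Among all calls in SN against parental cells 45.6% were higher, and 74.9% with the slide block. The slide block could not be run for Colony against parental cells, which share a slide. Fits with fewer samples have fewer degrees of freedom, and otherwise the cause was not tested. With no filter the median log2 difference of all probes in Colony against parental cells moved from -0.03 to -0.15.

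With the replicate number as a block, 0 member probes were called in Colony against parental cells, 0 in SN against parental cells and 0 in Colony against SN cells, as over all probes, and 3 passed the F test. DKK1 in Colony against SN cells then had a limma adjusted p of 0.224 at -0.53, and its Colony array was below the SN array of the same number and passage in 3 of 3. Deviations of same-numbered arrays correlated at 0.239, 0.0732 and 0.138 between Colony and SN cells, where every array correlated best with its own number, which is only a hint of pairing. Between parental and transduced cells they correlated at -0.196 to 0.150.

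The sign changed only for differences that were not called. For WNT7B in Colony against parental cells, quantile normalization gave 0.034 (A_33_P3248903) and -0.0031 (A_33_P3256920), and leaving out 1 array -0.29 to 0.15 (A_24_P911607), -0.22 to 0.16 and -0.10 to 0.19. In SN against parental cells, A_33_P3256920 gave -0.00095 with normexp and -0.022 with quantile normalization, the slide block gave 0.0045 for A_24_P911607 and -0.046 for A_33_P3248903, and leaving out 1 array gave -0.31 to 0.13, -0.15 to 0.22 and -0.12 to 0.16. In Colony against SN cells, A_24_P911607 gave -0.012 with normexp, the slide block gave -0.088 for it and -0.11 for A_33_P3256920, and leaving out 1 array gave -0.088 to 0.081, -0.13 to 0.035 and -0.11 to 0.10. For AXIN2 A_24_P298027 in SN against parental cells the slide block gave 0.0035 and leaving out 1 array -0.10 to 0.034. For TCF7L2 in Colony against SN cells leaving out 1 array gave -0.10 to 0.11 (A_23_P127013) and -0.25 to 0.037 (A_23_P389588).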
